A study of Sus scrofa with 6 samples.

Results

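The deposited circRNA table of pig granulosa cells sorts each circRNA by where it lies relative to annotated genes, and its class sense overlapping is described here. The members were all rows whose class label reads sense overlapping, with no threshold on reads or fold change. They numbered 2243 of 9362 circRNAs (24.0%) and held 85442 of the 183089 back-splice junction reads (46.7%). The exonic class, the largest in the table with 5090 circRNAs, served as the comparison class.

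A circRNA forms when a downstream splice site joins an upstream one, so that the RNA closes on itself and has neither a cap nor a poly(A) tail. It is recognised in sequencing by reads across this back-splice junction, which linear transcripts of the same gene do not hold. Sense overlapping is a class by position, used for circRNAs on the strand of a gene whose ends are not explained by the annotated exons, and the exact rule behind the label is not given in the sources used here. Granulosa cells line the antral follicle, make estradiol and feed the oocyte, and their apoptosis is the hallmark of atresia, by which most follicles of the ovary are lost.

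The AA group held granulosa cells of atretic antral follicles, and the HA group those of healthy antral follicles, all from nulliparous gilts in the follicular phase with no treatment. Each group had 3 libraries (AA1 to AA3 and HA1 to HA3), and each library was a separate pool of follicles, so a library is not an animal. Follicles were sorted by eye, AA being opaque and poorly vascularised, and in both groups follicular fluid went in with the scraped cells, so that floating apoptotic cells were in the AA pools. Total RNA depleted of rRNA was sequenced, and the junction reads are raw counts.

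Total junction reads were 25838 to 34414 per AA library and 29534 to 32608 per HA library. AA2, AA3 and HA1 stood apart from the other 3 libraries, across the groups. They detected 329, 452 and 420 members and their median counts per detected member were 16, 16 and 17 reads. AA1, HA2 and HA3 detected 785, 806 and 976 members, at median counts of 6, 6 and 4 reads. Summed FPKM of 9 leukocyte markers ran from 25.3 to 90.3 in AA, highest in AA2, and from 4.0 to 13.6 in HA, with the macrophage marker CD163 at 0 throughout. Sums were also higher in AA for 8 fibroblast and smooth muscle markers (63.0 to 176 in AA, highest in AA2, and 26.3 to 44.7 in HA) and 5 endothelial markers (7.76 to 16.8 in AA and 3.61 to 7.36 in HA). Of the fibroblast and smooth muscle markers, ACTA2, TAGLN and PDGFRB were higher in every AA library than in every HA library. COL1A1, COL1A2, COL3A1, DCN and LUM overlapped between the groups. KDR and EMCN among the endothelial markers, and PTPRC, LYZ and CD3E among the leukocyte markers, also overlapped. The sum of 7 theca markers was lower in AA (85.9 to 126 in AA and 235 to 367 in HA), with CYP17A1 near 0. Most of the theca sum in HA was LHCGR, at 172 to 286 FPKM in HA and 21.2 to 65.3 FPKM in AA. NR2F2 went the other way, at 22.7 to 41.3 FPKM in AA and 14.6 to 20.6 FPKM in HA. INSL3, PTCH1 and STAR overlapped between the groups. Summed FPKM of the 7 granulosa markers in the table ran from 2117 to 5176 in AA and from 4500 to 9948 in HA, most of it INHA and INHBA. Among them the FSH receptor FSHR was at 88.3 to 92.0 FPKM in AA and 28.4 to 51.0 FPKM in HA, and the aromatase CYP19A1 at 128 to 307 FPKM in AA and 744 to 1052 FPKM in HA. The part of these cell type markers in the results below was not tested, and in bulk RNA fewer cells of a type and less RNA per cell cannot be told apart.

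The members spanned 83 to 99908 nt of genome from end to end, with a median of 13001 nt and quartiles of 3674.5 and 31760 nt. The predicted length given with each member equalled its genomic span for all 2243, so no introns had been taken out, and the length of the RNA circle itself is not known from the table. Long members carried most reads. The 309 members of more than 50000 nt (13.8%) held 39.8% of the class reads, and the 956 members of 10000 to 50000 nt (42.6%) held 44.1%. By contrast, the 82 members of up to 300 nt held 0.851%. Across the 2243 members the rank correlation of reads with span was low (Spearman 0.14, a description over junctions that share libraries and often hosts).

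Within each library the members were longer than the exonic circRNAs of that library. The median span averaged 18066 ± 2934 nt for the members and 7950 ± 182 nt for exonic circRNAs (SD over 6 libraries), a ratio of 2.25 (log2 1.17 ± 0.19). The members were longer in 6 of 6 libraries (exact two-sided sign-flip test, p = 0.03125, the smallest that 6 libraries allow, adjusted p = 0.03125 over 3 class comparisons).

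Of the members detected in at least 3 libraries, the longest was circ_PLXNC1 at 99042 nt, from the gene of a semaphorin receptor. It was followed by circ_PARD3B.1 at 98866 nt, from a cell polarity gene, and then by circ_ZNF573.1 at 96060 nt, circ_MARC2 at 95789 nt and circ_ENSSSCG00000026340 at 95532 nt. Circ_PARD3B.1 held 137, 36 and 79 reads in AA and 68, 97 and 122 reads in HA, so its groups overlapped. The shortest were circ_RNaseP_nuc at 131 nt, from the RNA component of ribonuclease P, and circ_RPS6 at 139 nt, from a ribosomal protein gene. Circ_CRIM1.1, circ_GPSM2.1 and circ_SNX6 came next at 174, 303 and 328 nt.

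Position was checked against the gene loci of the deposited gene table (Sscrofa10.2), so an end inside or outside a locus depends on the gene models of that table. Of 2083 members whose host is in that table, 2040 overlapped the host locus, and 2036 of these (99.8%) lay on its strand, as the class name says. Both ends were inside the host locus in 1307 members, which held 31.0% of the class reads. In 670 members 1 end was inside and the other beyond the locus, and these held 51.9% of reads. The whole host lay within the span in 63 members (6.47% of reads), 43 did not overlap the locus given for their host (4.44%), and the host of 160 was not in the table (6.19%).

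The 776 members with an end outside the host locus thus held 62.8% of the class reads. Among members whose host is in the gene table, they were 32.7% of the 1472 detected in a single library and 65.6% of the 96 detected in all 6. Mean reads per detected member were 27.5, 45.9 and 49.3 with an end outside, and 10.3, 20.1 and 21.3 with both ends inside, in AA1 to AA3. The HA libraries gave 49.0, 30.4 and 23.7 reads with an end outside and 22.2, 11.7 and 8.63 with both ends inside. Medians lay closer, at 6, 18 and 18 reads with an end outside and 5, 14 and 14 with both ends inside in AA1 to AA3. In HA1 to HA3 the medians were 20, 8 and 5 with an end outside and 16, 6 and 4 with both ends inside. The same order was therefore seen in every library of both groups, with a wider gap in the means than in the medians. At least 2 genes on the member's own strand lay in the span of 264 members (11.8%), and the span of circ_CS.1 touched 13 genes on either strand.

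**Figure D1:**
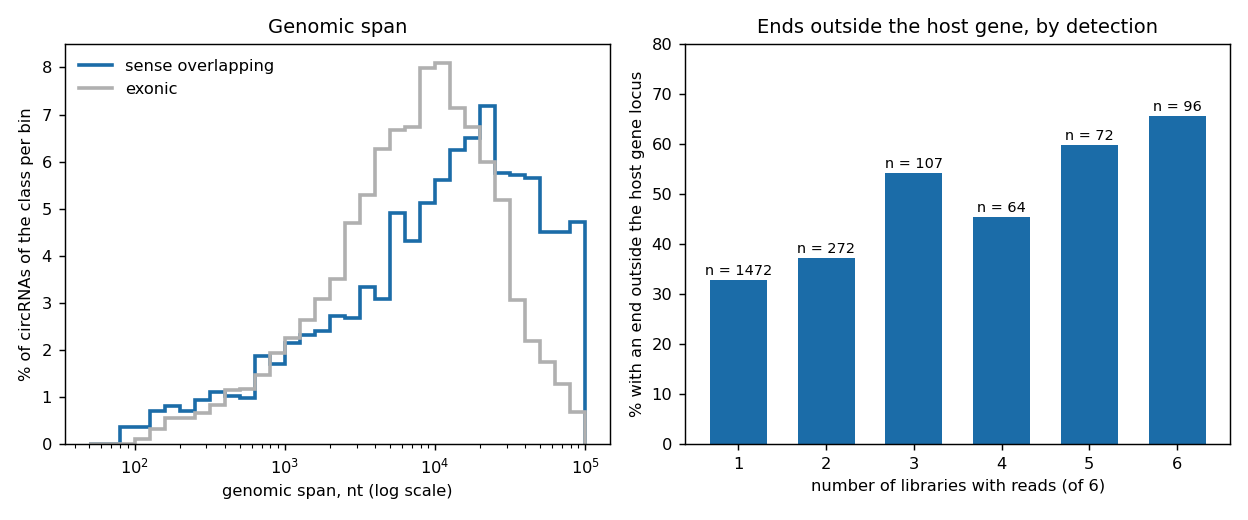
Left, genomic span in nt on a log axis for sense overlapping and exonic circRNAs, as the percentage of each class per bin; right, bars with the percentage of members that have an end outside the host gene locus, by the number of libraries with reads, with the members whose host is in the gene table as n. The members reach farther to the right than the exonic class, and the bars stand at 32.7% for members in 1 library and 65.6% for those in 6.

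Ends were seldom shared with the exonic class. Of all members, 427 shared 1 end with an exonic circRNA and 1 shared both, circ_ATAD2B.1 with a span of 95297 nt, while 1815 shared none. An end was shared with another member in 846. In 54 cases both ends fell within 10 nt of another circRNA, so that reads could be split between near-identical entries, and counts of these members are uncertain. The table marks 656 members (29.2%) as listed in earlier pig studies, and these held 79.8% of the class reads.

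Junction reads were concentrated in few members. The most abundant held 7.05% of the class reads, the top 10 held 29.9%, the top 50 held 57% and the top 100 held 67.3%, while the median member had 7 reads over the 6 libraries. The leading 33 members held 50% of the reads. In the exonic class the top 10 held 8.59%. The top 10 held 31.97% of the intergenic, 55.1% of the intronic and 16.6% of the antisense class reads, in classes with fewer circRNAs. Such concentration was therefore not particular to the sense overlapping class. Of the 20 circRNAs with most reads in the whole data set, 15 were members, and of the top 100, 64 were.

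**Figure D2:**
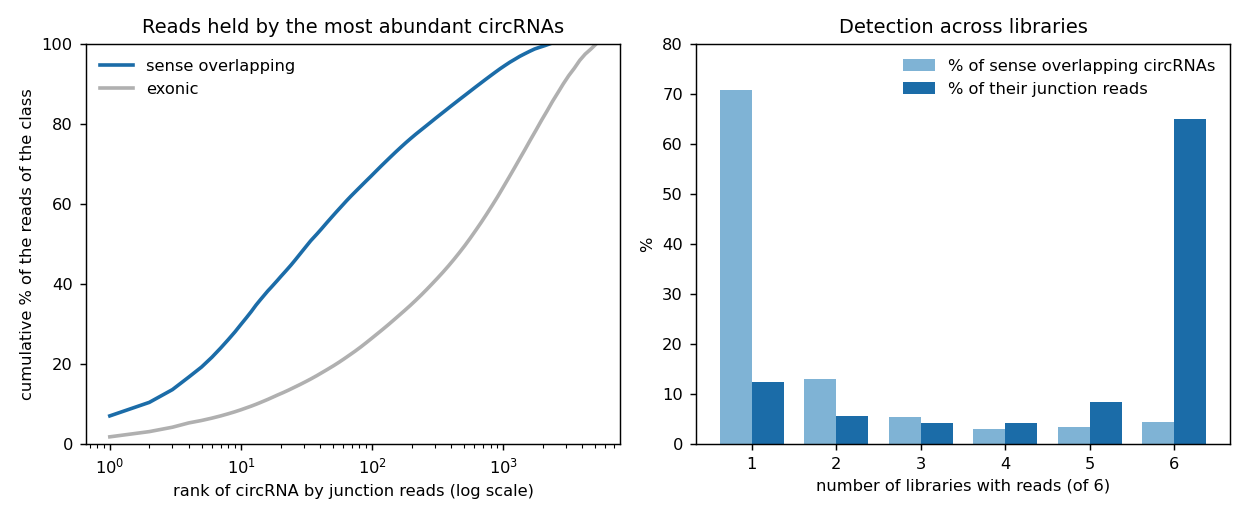
Left, cumulative percentage of the class's junction reads against abundance rank on a log axis, for sense overlapping and exonic circRNAs; right, bars with the percentage of members and of their reads by the number of libraries with reads. The 10 leading members held 29.9% of the class reads against 8.59% for the 10 leading exonic circRNAs, and the 98 members seen in 6 libraries held 64.9%.

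Reads per detected circRNA were 17.6, 33.9 and 34.3 for members in AA1 to AA3 and 34.6, 19.7 and 15 in HA1 to HA3. Exonic circRNAs had 6.52, 16.2 and 16.2 reads in AA1 to AA3 and 16.7, 7.98 and 5.55 in HA1 to HA3. The means were 25.8 ± 9.33 and 11.5 ± 5.36 (SD over 6 libraries), a ratio of 2.34 (log2 1.23 ± 0.18). Members were higher in 6 of 6 libraries, among them AA2, AA3 and HA1 and the 3 others. These are means per circRNA, and over the 6 libraries together the median was 7 reads for members and 6 reads for exonic circRNAs. The share of class reads in the 10 leading circRNAs of each library was 30.6% ± 1.76 for members and 9.64% ± 1.16 for exonic circRNAs, a difference of 20.9 ± 2.76 percentage points in a class with fewer circRNAs. For each of these contrasts the exact two-sided sign-flip test gave p = 0.03125, the smallest possible (adjusted p = 0.03125).

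The most abundant member, circ_ENSSSCG00000020860.1 (chr15:107266814-107322566, plus strand, span 55753 nt), held 897, 855 and 1164 reads in AA, against 881, 1325 and 903 in HA. Its groups overlapped. Circ_LOC733637 (chr6:96420130-96441480) held 360, 500 and 511 reads in AA, against 496, 529 and 492 in HA. Circ_ZCCHC11.1 (chr6:147425793-147467514), from a gene whose product adds uridines to RNA 3′ ends, held 494, 366 and 521 reads in AA, against 341, 547 and 454 in HA. These members were well above the median member in every library, with AA and HA libraries interleaved. ZCCHC11 was the one host among the 11 of the top 12 in the gene table whose locus held both ends.

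Circ_BTF3L4 (chr6:147753296-147835689), from a relative of the transcription factor BTF3, held 330, 223 and 658 reads in AA, against 500, 624 and 349 in HA. Its host locus covered 0.238% of its 82394 nt span. Circ_NFATC3.1 (chr6:25836379-25914846), from a calcium-regulated transcription factor gene, held 483, 174 and 313 reads in AA, against 423, 435 and 310 in HA. Circ_PNRC1 (chr1:63827196-63872257), which encloses the whole gene of a nuclear receptor coactivator, held 347, 194 and 472 reads in AA, against 333, 344 and 281 in HA. In each of the 3 the lowest value was in AA2, and the groups overlapped.

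Circ_CS.1 (chr5:23083310-23164933), from the citrate synthase gene, held 238, 213 and 305 reads in AA, against 311, 346 and 235 in HA. Circ_ENSSSCG00000026340 (chr6:73334893-73430424) held 148, 292 and 352 reads in AA, against 276, 309 and 228 in HA. Circ_SUPT20H.1 (chr11:12807920-12827332), from a gene of the SAGA histone acetyltransferase complex, held 237, 184 and 156 reads in AA, against 173, 225 and 365 in HA. None of these separated the groups.

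In the remaining members of the top 12 the groups did not overlap once reads were divided by the relative mapped depth of each library. Of the 175 circRNAs of any class in all 6 libraries, 7.43% had AA below HA without overlap and 4.57% had AA above HA. Circ_AXL (chr6:44991359-45006970, plus strand) held 407, 340 and 426 reads in AA, against 235, 198 and 199 in HA, a ratio of 1.87 of the depth-scaled sums (edgeR log2 0.87, unadjusted p = 0.0132, Benjamini-Hochberg adjusted p = 0.812). It was the most abundant member in which each AA library lay above each HA library. Although named for AXL, the receptor tyrosine kinase for GAS6, it did not overlap the AXL locus of the gene table and lay on the other strand. AXL itself was at 52.2, 83.8 and 42.2 FPKM in AA and 17.8, 27.4 and 28.5 FPKM in HA (limma log2 1.21, SE 0.287, adjusted p = 0.11).

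Circ_SEC13.1 (chr13:73561709-73653108), from the gene of a COPII coat and nuclear pore protein, held 359, 297 and 248 reads in AA, against 311, 389 and 489 in HA (edgeR log2 -0.39). Circ_PAIP1.1 (chr16:29621190-29681127), from the gene of a poly(A)-binding protein partner, held 128, 206 and 236 reads in AA, against 236, 312 and 307 in HA (edgeR log2 -0.52). Both were lower in each AA library than in each HA library after depth scaling. Over the top 12, edgeR log2 fold changes ran from -0.52 to 0.87, and no adjusted p was under 0.812. All 12 are listed in earlier pig studies, and 10 of the 12 host genes had no exonic circRNA in the table.

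**Figure D3:**
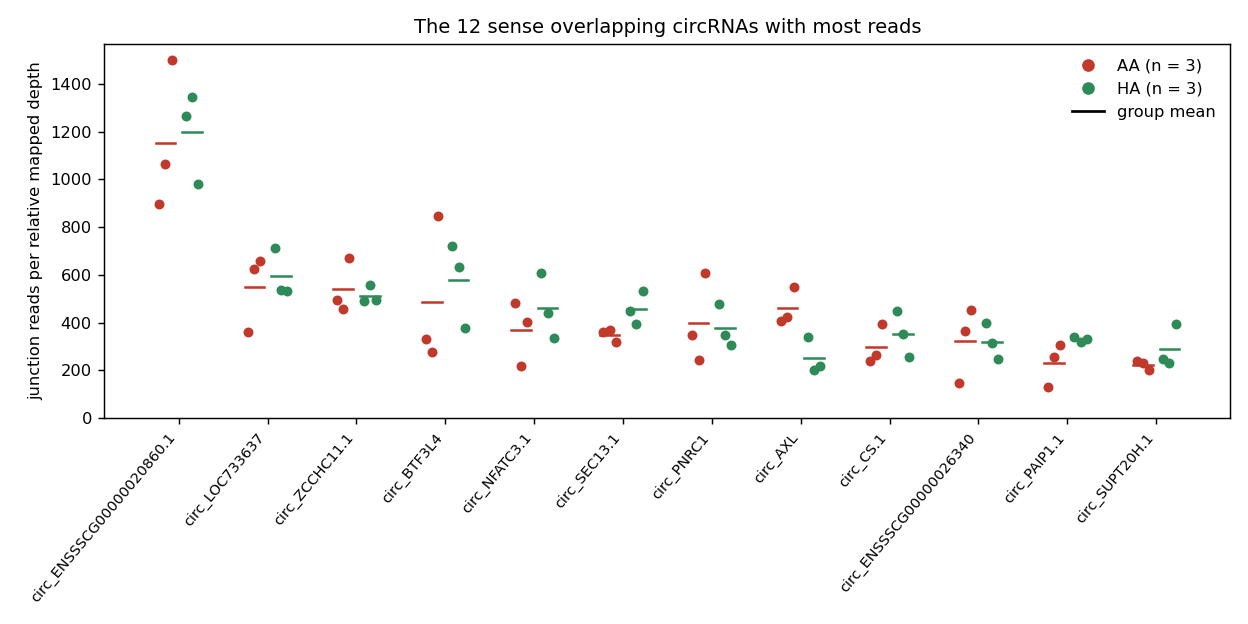
Junction reads divided by relative mapped depth, on a linear axis, for the 12 most abundant sense overlapping circRNAs, with AA to the left of HA, a point for each library and a line at each group mean. The groups overlap except in circ_AXL, where AA lies above HA, and in circ_SEC13.1 and circ_PAIP1.1, where AA lies below HA.

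Detection was sparse. Of the 2243 members, 1589 (70.8%) had reads in a single library, and these held 12.4% of the class reads. Another 294 were detected in 2 libraries, 120 in 3, 67 in 4 and 75 in 5. The 98 members detected in all 6 libraries (4.37%) held 64.9% of the reads. Their median was 272 reads each, at a median span of 39690.5 nt, against 11222 nt in single-library members. Of the 175 circRNAs of any class detected in all 6 libraries, 98 (56.0%) were members, and 87 of the 98 are listed in earlier pig studies. In the exonic class 74.6% of circRNAs had reads in a single library and 1.22% in all 6.

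By group, 623 members had reads in AA libraries alone, 1089 in HA libraries alone and 531 in both. CircRNAs of any class detected also differed between libraries, at 3036, 1270 and 1620 in AA1 to AA3 and 1416, 2804 and 3465 in HA1 to HA3. The counts by group were not set against all circRNAs, and they are no result about the class. Detection in at least 3 libraries was reached by 360 members (16%), against 10.9% of exonic circRNAs. Of the 120 members in exactly 3 libraries, 0 had all their reads in AA, against 15 (12.5%) with all reads in HA. The 438 circRNAs of any class in exactly 3 libraries gave 0.457% for AA and 10.3% for HA.

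The members came from 1496 host genes, of which 1067 gave a single member and 29 gave at least 5. Most members came from HEATR5A, with 12 members and 376 reads, 62.5% of them in its leading member. TLK1, a kinase acting on chromatin assembly factors, gave 10 members and 760 reads. ESR1, the estrogen receptor alpha, gave 9 members with 430 reads, NCOR1, a nuclear receptor corepressor, 9 with 389, and DHX57, a putative RNA helicase, 9 with 349. GREB1L, ENSSSCG00000015939 and CARF, a calcium-responsive transcription factor, gave 8 each.

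Other hosts led by reads, in every case through 1 dominant member. ENSSSCG00000020860 gave 6035 member reads, LOC733637 2888, ZCCHC11 2733 and BTF3L4 2684. NFATC3, SEC13, PNRC1 and AXL gave 2171, 2141, 1971 and 1805. Members were found on 19 chromosomes, with most members (264) on chromosome 1, most reads (18023) on chromosome 6 and 104 members on unplaced scaffolds.

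Host genes had higher FPKM than genes at large, with a median of 21.2 FPKM for 1375 hosts in the table against 2.58 FPKM for all genes. At least 1 FPKM was reached by 96.6% of hosts and by 57.4% of all genes. Among members, however, host FPKM did not order the reads (Spearman -0.02 over 2083 members, which share libraries and hosts). SERPINE2, a secreted protease inhibitor gene at 7310 FPKM, gave 54 member reads. Of the hosts, 608 also had exonic circRNAs, and the sense overlapping members held more reads than the exonic ones in 225 of these.

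Host genes were also grouped by role, and edgeR called 0 members of any of these lists in either direction. Among 8 granulosa hormone and steroid genes with 20 members and 1077 reads, 4 members were detected in at least 3 libraries. NR5A2, a nuclear receptor needed for ovulation, gave the most abundant, circ_NR5A2.1. Circ_ESR1.1 (chr1:16779138-16871069) held 54, 30 and 40 reads in AA, against 83, 63 and 55 in HA, with 0.208% of its span inside the ESR1 locus of the gene table. Each AA library was below each HA library in these raw reads. That ESR1 locus runs only from base 16870878 to 16871069, on the minus strand. Circ_ESR1.2 and circ_ESR1.6 lay on the plus strand and did not overlap it. Circ_FOXL2, from the gene of a transcription factor that maintains granulosa identity, was seen in HA1 alone with 26 reads.

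Among the 8 hosts counted for TGF-beta and SMAD signalling, with 14 members and 193 reads, 3 members were detected in at least 3 libraries. TGFB1 was not among these 8 hosts, and its member circ_TGFB1 is described below. Circ_BMPR1B.1, from a BMP receptor gene that affects ovulation rate in sheep, held 10, 0 and 30 reads in AA, against 16, 2 and 11 in HA, and its groups overlapped. Circ_SMAD4.1, from the common mediator of this pathway, held 12 reads in all.

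Chromatin regulators were 23 hosts with 55 members and 1622 reads, of which 11 members were in at least 3 libraries. Circ_NCOR1.1 held 63, 47 and 35 reads in AA, against 22, 27 and 43 in HA. Circ_TLK1.1 held 31, 20 and 52 reads in AA, against 38, 13 and 50 in HA. The groups overlapped in both. The 4 leading TLK1 members, circ_TLK1.1 to circ_TLK1.4, ended at the same base, 86671532 on chromosome 15, and began at different ones.

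RNA-binding and splicing factors were 17 hosts with 35 members and 1287 reads, 9 of them in at least 3 libraries. Circ_STAU2.1, from a double-stranded RNA-binding protein gene, held 71, 20 and 50 reads in AA, against 47, 111 and 42 in HA. Circ_PTBP3.1, from a splicing regulator gene, held 57, 5 and 58 reads in AA, against 88, 51 and 30 in HA. In both, AA2 was the lowest library. Ubiquitin ligases and deubiquitinases were 19 hosts with 37 members and 1207 reads, 4 in at least 3 libraries, led by circ_TTC3.1 with 107, 144 and 202 reads in AA, against 148, 109 and 112 in HA.

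Cytoskeleton and motor genes gave fewer reads, with 20 hosts, 35 members and 514 reads, and 2 members in at least 3 libraries. Circ_ARHGAP10 held 13, 25 and 58 reads in AA, against 12, 65 and 24 in HA. Interleukin 1 and apoptosis genes were 3 hosts with 3 members and 251 reads. Structural RNA hosts were 5 with 11 members and 120 reads, 3 of them in at least 3 libraries, and these come from repeated RNAs whose copies can share reads.

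AA and HA were compared first at the level of the whole class, 1 value per library, which asks whether atresia goes with a different amount or make-up of these circRNAs. Junction reads of members per relative mapped depth averaged 15885 ± 3516 in AA and 17611 ± 2825 in HA (SD, n = 3 each; log2 -0.15, exact two-sided permutation p = 0.5). The share of junction reads in the class was 45.4% ± 2.49 in AA and 47.9% ± 2.11 in HA (-2.48 percentage points, exact permutation p = 0.2). Members were 25.9%, 25.9% and 27.9% of the circRNAs detected in AA and 29.7%, 28.7% and 28.2% of those in HA. Each AA library was thus below each HA library, by 2.30 percentage points between means (exact permutation p = 0.1, the smallest that 3 against 3 allows).

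The 10 leading members held 31.3% ± 0.887 of class reads in AA and 29.9% ± 2.33 in HA (exact permutation p = 0.4, n = 3 each). The median span of detected members was 19534 ± 3432 nt in AA and 16597 ± 1808 nt in HA (exact permutation p = 0.2, n = 3 each). The adjusted exact permutation p over the 5 values ran from 0.333 to 0.5, and the design could not have reached 0.05.

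Single members were then compared between AA and HA with edgeR's quasi-likelihood test, fitted to all 1014 circRNAs of any class with at least 2 reads in at least 3 libraries, of which 360 were members. Only 360 of 2243 members entered this test, and low members entered only if enough libraries of either group held them. EdgeR called 0 members lower and 0 higher in AA at a threshold of 0.05 on the Benjamini-Hochberg adjusted p together with a 2-fold minimum, where 0.0986% of all circRNAs tested were called. The common dispersion was 2.03, and in simulated counts of this design edgeR recovered 0% of 4-fold and 46.9% of 64-fold changes. At an unadjusted p of at most 0.05, 17 members (4.72%) were lower in AA against a background of 5.13% and 3 (0.833%) were higher against 0.592%. DESeq2 also called 0 at the adjusted p, with 16 lower (4.44%, background 4.54%) and 5 higher (1.39%, background 1.28%) at the unadjusted p. Without HA1, HA2 or HA3, edgeR gave 1, 2 and 2 lower members and 5, 3 and 2 higher ones at the unadjusted p, and members at 0 in AA could then not pass the filter. These settings tested 326, 274 and 258 members among 875, 722 and 663 circRNAs of any class. Over those circRNAs, 2, 6 and 6 were lower and 9, 4 and 8 higher.

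The median edgeR log2 fold change was -0.22 over the 360 members and -0.15 over all 1014 circRNAs. It was below 0 in 207 members (57.5%), against 53.7% of all tested. Depth-scaled reads lay below HA in every AA library for 36 members (10.0%, background 8.88%) and above HA in every AA library for 12 (3.33%, background 2.86%). These shares were near the background. The 98 members seen in all 6 libraries had a median of -0.19 (-0.12 over the 175 circRNAs of any class), a range from -2.19 to 2.03, and 83 of them lay within 1 log2 unit of 0. Of these 98, 9 (9.18%) had AA below HA without overlap, where 7.43% of the 175 did, and 4 (4.08%) had AA above HA, where 4.57% did.

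The smallest edgeR adjusted p of any member belonged to circ_IL1R1, from the gene of the interleukin 1 receptor, which carries inflammatory signalling (chr3:54706870-54757579, minus strand, span 50710 nt, 56.2% of it inside the host locus). The study's divergent primers, which face away from each other on the linear gene and amplify across the back-splice junction, are shown because this member had the smallest edgeR p:
circ_IL1R1 divergent primer, forward: atttggggctggggatag
circ_IL1R1 divergent primer, reverse: tttcatcttcacgctcctca

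Circ_IL1R1 held 18, 153 and 41 reads in AA, against 0, 13 and 0 in HA. Every AA library was above every HA library, with the highest value in AA2, the library with the highest leukocyte marker sum and the highest fibroblast and smooth muscle sum. The depth-scaled sum was 16.5-fold higher in AA (edgeR log2 4.22, unadjusted p = 1.55e-04, adjusted p = 0.0787). The paper reports it as significantly higher in AA, from its own analysis of the sequencing and by quantitative RT-PCR. The edgeR adjusted p of circ_IL1R1 was 3.24e-04 without HA2, 0.0245 without AA3 and 0.999 without AA2. It was 0.207 without AA1, 0.139 without HA1 and 0.459 without HA3. HA2 was the only HA library with reads, so HA was at 0 without it, and that p supports no difference. IL1R1 was at 9.44, 35.1 and 12 FPKM in AA and 2.80, 2.41 and 1.55 FPKM in HA (limma log2 2.40, SE 0.457, adjusted p = 0.0683). Host and circRNA thus shared the order of the AA libraries, AA2 highest, AA3 next and AA1 lowest.

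Circ_TGFB1 (chr6:45070836-45139175), from the gene of the ligand TGF-beta 1, was singled out after its values were seen. It held 45, 68 and 40 reads in AA, against 0, 26 and 0 in HA. The AA libraries were all above HA, with a 5.94-fold higher depth-scaled sum (edgeR log2 2.74, adjusted p = 0.812, and 0.0218 without HA2). Without HA2 the HA group held 0 reads, so that value supports no difference. Without any other library the edgeR adjusted p was at least 0.477. TGFB1 was at 6.13, 16.3 and 3.07 FPKM in AA and 2.09, 1.95 and 0.986 FPKM in HA (limma log2 1.60, adjusted p = 0.187).

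A linear model per circRNA was also fitted to the deposited log2 values, in which 0 reads are entered as 1, and read at an unadjusted p with a 2-fold minimum, which is a looser rule than the false discovery rate named in the study's text. At the unadjusted p it selected 19 members lower in AA (5.28%, background 4.83%) and 4 higher (1.11%, background 1.28%). None passed after adjustment, where the smallest adjusted p was 0.0539, that of circ_NDUFB2.1. With log2 of the depth-scaled count plus 0.5 in place of the deposited values, 4 members passed the adjusted p, all lower in AA (1.11%, background 1.38%), namely circ_NDUFB2.1, circ_SMAD2, circ_CARF.6 and circ_SNX6. All 4 had 0 reads in AA, and 0 reads then enter as the same value in every AA library, so that the spread came from HA alone. With the deposited values, 14 of the 23 selected members were also among those of edgeR at the unadjusted p. The shares again lay near the background, and the values of the selected members are given as a description.

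Of the 19 lower members, 12 had 0 reads in all AA libraries, and 12 were detected in exactly 3 libraries. They held 8 to 571 reads, with a median of 36. In 9 both ends lay inside the host locus, and 11 are listed in earlier pig studies. After leaving out an AA library, 10 to 12 of the 19 were still selected. Without HA1, HA2 or HA3 the 12 members at 0 in AA no longer had reads in 3 libraries and were not tested, and 4 of the 7 that were tested were still selected. Leaving out AA2, AA3 and HA1 together left a single AA library, whose spread is assumed to be that of HA, against 2 of HA. The linear model then gave 12 lower members (3.33%, background 4.64%) and 4 higher ones (1.11%, background 2.27%), and edgeR gave 0 calls.

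Circ_NR5A2.1 (chr10:27281192-27287711, span 6520 nt) was the most abundant of them, with 74, 37 and 71 reads in AA, against 83, 158 and 148 in HA. After depth scaling the groups did not overlap, and the sum was 2.12-fold lower in AA (linear model log2 -1.10, SE 0.325, unadjusted p = 0.0276, and 0.0885 with the number that same-dated AA and HA libraries share as a replicate block). NR5A2 was at 213, 130 and 337 FPKM in AA and 457, 494 and 470 FPKM in HA (limma log2 -1.16, SE 0.314, adjusted p = 0.139). Of all 6 libraries, AA2 was the lowest for both circRNA and host.

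Circ_SMAD2 (chr1:106924970-106929326, span 4357 nt), from a gene that carries TGF-beta and activin signals to the nucleus, held 0, 0 and 0 reads in AA, against 14, 8 and 14 in HA. Taking 3 reads over the group as the limit that 0 allows by counting error alone, it was at least 11.9-fold lower in AA (linear model log2 -3.53, SE 0.403, unadjusted p = 9.38e-04). This limit leaves out the spread between libraries, where the common dispersion was 2.03. With that spread, the folds given for members at 0 in AA are not lower bounds. The same pattern of no AA reads was seen in several others. Circ_ZC3H6.1, from a zinc finger gene, had no reads in AA, against 24, 12 and 8 in HA, and was at least 14.5-fold lower in AA. Circ_POLDIP3.1, from a gene acting in mRNA export, was likewise at 0 in AA, against 22, 13 and 6 reads in HA, at least 13.5-fold lower. Circ_NDUFB2.1, from a gene of mitochondrial complex I, was at 0 in AA, against 8, 12 and 7 reads in HA, at least 8.92-fold lower, with the smallest linear model p of any member (unadjusted p = 2.13e-04). These 4 members were thus read in every HA library and in no AA library, a pattern set by the filter. A member at 0 in AA was tested only if every HA library held at least 2 reads. The p-values of all members at 0 in AA are therefore given as a description and support no difference.

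Circ_SNX6, from the gene of a retromer-associated sorting nexin, had no reads in AA, against 4, 8 and 15 in HA, at least 8.92-fold lower in AA. Circ_CSPP1.1, from a centrosome and spindle gene, was at 0 in AA, against 13, 4 and 9 reads in HA, at least 8.59-fold lower. Circ_SLC25A37.1, from the gene of the mitochondrial iron importer mitoferrin, was at 0 in AA, against 10, 6 and 3 reads in HA, at least 6.28-fold lower. These 3 rest on at most 15 reads in any library. Circ_ENSSSCG00000009624.1 and circ_CARF.6 were also at 0 in AA, with 11, 3 and 11 and with 2, 2 and 4 reads in HA, at least 8.26-fold and at least 2.64-fold lower. All these folds use the same limit, which leaves out the spread between libraries.

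Members with reads in AA were also among the lower ones. Circ_ENSSSCG00000025785.1 held 10, 12 and 10 reads in AA, against 42, 46 and 26 in HA, 3.53-fold lower. Circ_ENSSSCG00000021189 held 7, 10 and 6 reads in AA, against 23, 27 and 25 in HA, 3.23-fold lower, with a narrow spread in both groups. Further lower members, beyond the 12 of smallest p, were circ_POR.1, circ_N4BP2.2 and circ_RNaseP_nuc with no AA reads, and circ_GIPC1.1, circ_NBEA and circ_ENSSSCG00000023293, whose values are in the plot of the selected members.

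The 4 higher members held 69 to 225 reads each, and all are listed in earlier pig studies. Besides circ_IL1R1 (linear model log2 4.37, SE 1.51, unadjusted p = 0.0441), they were circ_MCC, circ_LSM14A.1 and circ_NCOR1.2. Circ_MCC (chr2:121253565-121321204), from a gene first described in colorectal cancer, held 44, 23 and 83 reads in AA, against 12, 9 and 16 in HA, a 4.09-fold higher depth-scaled sum (linear model log2 1.87, SE 0.638, unadjusted p = 0.0425). Circ_LSM14A.1 (chr6:39337935-39340790), from a P-body protein gene, held 36, 26 and 34 reads in AA, against 3, 13 and 16 in HA, 3.03-fold higher (linear model log2 1.9, SE 0.627, unadjusted p = 0.0390, and 0.0827 with the replicate block). Circ_NCOR1.2 (chr12:62458832-62523689) held 26, 19 and 14 reads in AA, against 6, 0 and 4 in HA, 5.95-fold higher (linear model log2 2.73, SE 0.923, unadjusted p = 0.0417, and 0.0967 with the replicate block).

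In all 4 the AA libraries lay above the HA libraries after depth scaling. The abundant circ_NCOR1.1, which spans another stretch of the same host, did not separate the groups. Among the 12 members with AA above HA, circ_LAP3, from an aminopeptidase gene, was also abundant, with 244, 201 and 249 reads in AA, against 116, 95 and 199 in HA. It was named after its values were seen. LAP3 was at 56.2, 49.3 and 38.0 FPKM in AA and 23.3, 24.6 and 34.4 FPKM in HA.

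**Figure D4:**
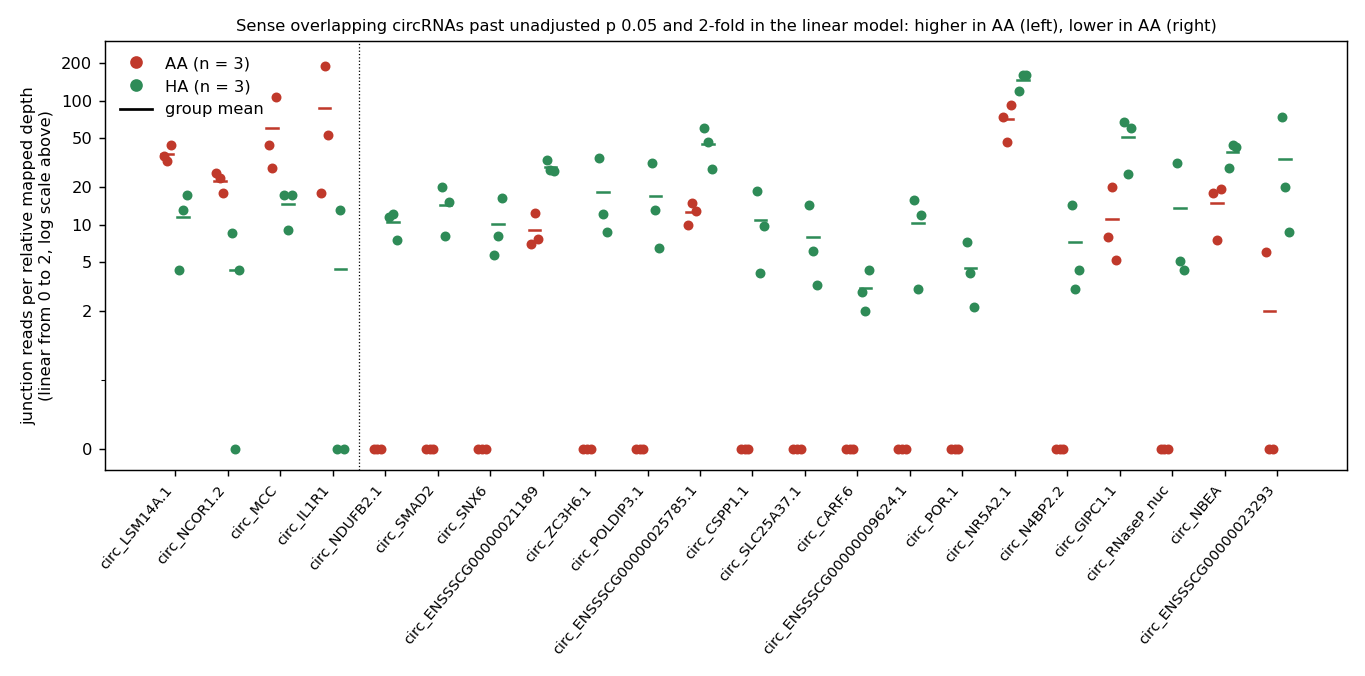
Junction reads divided by relative mapped depth for members selected by the linear model, on an axis that is linear up to 2 and logarithmic above, with AA to the left of HA, a point for each library and a line at each group mean. The 4 higher members stand left of the dotted line, 12 lower members sit at 0 in AA, and circ_IL1R1 is highest in AA2.

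Host genes were compared in the same libraries by limma on log2(FPKM + 1). Of 1323 host genes among the 11001 genes tested, 0 passed the adjusted threshold of 0.05 (background 0.0%), and 211 (15.9%) had an unadjusted p of at most 0.05 against a background of 15.6%. The median log2 fold change was -0.08 for hosts and 0.01 for all genes. Without AA3, limma called 4 hosts lower (0.304%, background 0.204%) and 5 higher (0.38%, background 0.695%).

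Values of the host genes stand beside those of the selected members. Of the 16 tested hosts of the 19 lower members, 12 had a log2 fold change below 0 and 4 above, from -1.16 to 0.47, with limma adjusted p from 0.139 to 0.999. In 5 of these 16 the FPKM of AA and HA did not overlap, where 21.0% of all genes tested did not. Of the 4 hosts of the higher members, 3 were above 0, with IL1R1 at 2.40, MCC at 0.93 and NCOR1 at 0.37, and LSM14A was at -0.23, with limma adjusted p from 0.0683 to 0.593. Over all 322 members with a tested host, the log2 fold changes of circRNA (edgeR) and host (limma) had the same sign in 186 (57.8%). Among the 91 read in all 6 libraries the sign was the same in 51. Circ and host values come from the same 6 libraries, so the 2 differences are not independent.

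**Figure D5:**
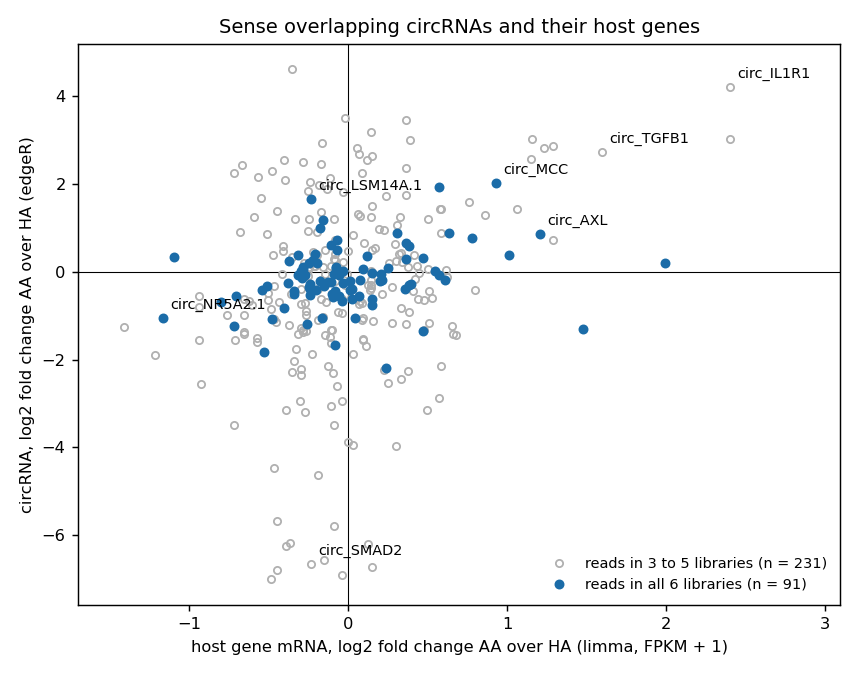
The edgeR log2 fold change of each tested member (AA over HA) on the vertical axis against the limma log2 fold change of its host on the log2(FPKM + 1) scale, for the 322 members whose host was tested, with filled points for the 91 read in all 6 libraries. Open points spread more widely on the vertical axis, where the lowest have no AA reads and a fitted value that depends on edgeR's prior count, while circ_LSM14A.1 is above 0 with its host at -0.23.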

How the data were processed

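Libraries were grouped as AA or HA by their labels. The authors trimmed reads with cutadapt, aligned them with bowtie2 to Sscrofa10.2 (susScr3 in the submitters' processing notes) and called back-splice junctions with find_circ, keeping junctions with at least 2 reads in a sample. The deposited table holds raw counts of junction reads and the authors' log2 values, which are log2 of the count (0 entered as 1) plus a constant per library for mapped reads, from which the relative mapped depth was taken (1, 0.802 and 0.777 in AA1 to AA3 and 0.695, 0.985 and 0.922 in HA1 to HA3). The predicted length in nt is also the authors' value. The deposited gene table holds FPKM, which the authors computed with TopHat and Cufflinks, and a scaled signal the authors head as counts, which was not tested. The lncRNA table was not used.

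CircRNA counts were tested with edgeR 4.0.16 on the depth from the constants (at least 2 reads in at least 3 libraries), with DESeq2 1.42.0 as an alternative, and FPKM with limma 3.58.1 on log2(FPKM + 1) for genes of at least 1 FPKM in at least 3 libraries. P-values were adjusted over all features fitted. The linear model used each circRNA's own variance on the log2 values. Folds against a group at 0 used 3 reads over the group as a floor, and they cover counting error only. Scripts were tested on simulated data, in which edgeR found 14.1% of 16-fold changes. Python 3.11.15 and R 4.3.3 were used.

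The members named were the 12 with most reads, up to 12 of smallest p in each direction of the linear model, the 5 longest and shortest in at least 3 libraries, the 8 hosts with most members or reads, leading members of the host lists, and those the study names. A selected member is not reported here by name. Members, lists and rules were chosen with earlier results of these data known, and the lists therefore support no finding. Same-numbered AA and HA libraries share a date in the labels, but their deviations from the group means did not go together (correlations over members 0.01, 0.06 and -0.16), so the numbers were not taken as pairs. The unadjusted p of the linear model, the filters, the scaling, the block and leaving out each library were varied.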

Additional observations from a re-analysis of the deposited data

How the results depend on the processing

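Counts of members called by edgeR stayed at 0 at the adjusted p under TMM scaling, DESeq2, no filter, detection in at least 5 libraries, no fold minimum and the replicate block. At the unadjusted p they were 20 (17 lower and 3 higher in AA), 21 with DESeq2 and 7 with the replicate block (4 lower and 3 higher). Of all 1014 circRNAs, 52 were lower and 6 higher, 46 and 13 with DESeq2, and 11 and 4 with the block. The DESeq2 and block counts at the unadjusted p and the 0.5 with the adjusted p were chosen after seeing the data. So were the unadjusted counts without a library and the setting without AA2, AA3 and HA1. Leaving out each library gave 0 to 2 calls, circ_IL1R1 without AA3 and circ_IL1R1 and circ_TGFB1 without HA2. Over circRNAs of any class, edgeR called 1 lower and 1 higher of 852 without AA3, and 2 higher of 722 without HA2. HA2 was the only HA library with reads of these members, so the calls without it support no difference. The linear model, with 23 members at the unadjusted p, gave 0 at the adjusted p, 4 members were called with 0.5 added to the depth-scaled count together with the adjusted p (25 at its unadjusted p), 8 were found at detection in at least 5 libraries (5 lower and 3 higher), and 9 to 23 on leaving out a library, lowest without HA3. Of 1014 circRNAs of any class, 60 were lower and 8 higher at the unadjusted p with 0.5 added, and 14 lower at its adjusted p. At detection in at least 5 libraries 6 were lower and 7 higher of 348, beside 173 members tested. Without HA3 it gave 10 lower and 19 higher of 663, and 4 and 5 of 258 members. Without AA3 it gave 50 and 10 of 852, and 21 and 2 of 317 members. Under the replicate block the linear model selected 18 members (12 lower and 6 higher), where 35 of all 1014 circRNAs were lower and 17 higher. Of the 23, 13 then no longer passed its threshold. For hosts, leaving out a library gave 0 to 9 calls, 9 of them without AA3.

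Under the replicate block the edgeR log2 fold change of circ_PNRC1 turned to -0.0091 (0.08 without it) and that of circ_ENSSSCG00000026340 to -0.094 (0.01 without it). The block gave exact sign-flip p-values of at least 0.25 for the library values, the smallest that 3 pairs allow. The cause was not tested. Leaving out each library, the contrasts with the exonic class stayed at 1.19 to 1.26 (log2 reads per detected circRNA), 1.11 to 1.22 (log2 median span) and 20.4 to 21.8 percentage points (leading 10), with exact p = 0.0625, the smallest that 5 libraries allow. The AA minus HA values of the class ranged from -0.35 to -0.01 (log2 reads), -3.81 to -1.34 and -2.98 to -1.90 percentage points (shares of reads and of circRNAs), 0.644 to 2.75 points (leading 10) and 1079 to 4461 nt (median span). Depth limits members of few reads, and 12 of the 19 lower members rest on 0 reads in AA.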
